A study of Mus musculus with 32 samples.

Results

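A set of 125 of the 1606 genes in a table of mouse cartilage RNA was already higher in the earliest MMS group, D3, and was still higher in the last of the D groups, D28. The members were chosen from measured values. For each gene the log2 change was the log2 of a group's mean value plus 1, minus that of Control. A member had a change of at least 0.5 in MMS D28 and a change in MMS D3 of at least 0.6 times its D28 change. In all, 673 genes passed the D28 limit, and 548 of them failed the D3 limit. The values of Control, MMS D3 and MMS D28 cartilage are therefore a description here and were given no test.

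RNA was sequenced from cartilage and synovium of C57BL/6 mice that were controls or belonged to the MMS model. The cartilage groups were Control, MMS D3, MMS D7, MMS D14, MMS D28, R1 and R2, with 2 libraries each and 14 in all; the MMS groups are called D3, D7, D14 and D28 below. The synovium groups were the same without MMS D28, with 3 libraries each and 18 in all. The labels name only the strain, the tissue and the group: the terms MMS, R1 and R2 are not explained and the D numbers have no unit. No age, sex or genotype is stated, and the labels do not say whether R1 and R2 mice carried the model. They also do not say that libraries of a group came from separate animals, so the p-values below measure the spread between these libraries, which may be technical.

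Cartilage is made by chondrocytes in a matrix of collagen and proteoglycan. Injury or loading of a joint is known to raise proteases such as collagenases, acute phase proteins driven by interleukin-6-type cytokines and STAT3, and genes of the stress hormone response in joint tissues. Tissue dissected with underlying bone also carries marrow cells, among which maturing neutrophils express stefin A proteins, small cytosolic inhibitors of cysteine cathepsins.

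The table fits the cartilage label in part. Of 22 chondrocyte matrix genes, 16 were in it, among them Col2a1 and Acan, with a summed signal of 19733 to 25935 in the Control libraries. It also held 28 of 34 neutrophil genes and 19 of 28 B cell genes, which are markers of marrow and blood cells. In such bulk samples fewer cells of a type and less RNA per cell cannot be told apart. The unit of the normalised cartilage signal is not stated, its sums per library were 108504 to 149830, and read depth is unknown, so precision rests on the 2 libraries per group. The higher of the pair of libraries was at the median 1.11 times the lower over the members' groups, and in 55 of 875 pairs of values the ratio was above 1.5. Each table lists a selection of genes, made by an unstated rule, and no value in them was 0.

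The members' median stayed above Control from D3 to R1 and was near it in R2; in D3 and D28 the rule fixed this. Their median log2 change against Control was 0.59 in D3, 0.46 in D7, 0.57 in D14, 0.66 in D28, 0.48 in R1 and 0.10 in R2. Over all 1606 genes the medians were 0.07, -0.06, 0.04, -0.49, -0.18 and 0.02 in the same order. Over the 548 other genes raised in D28, of which 278 (50.7%) had both D3 libraries above both Control libraries, they were 0.15, 0.11, 0.43, 0.73, 0.60 and 0.16. Every one of these changes shares its Control libraries with the rule, so nothing is read from their sign or shape. The highest group mean lay in D28 for 74 members, D14 for 19, D3 for 14, D7 for 12 and R1 for 6. None had its highest mean in R2, and the rule bars Control from being the highest.

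**Figure D1:**
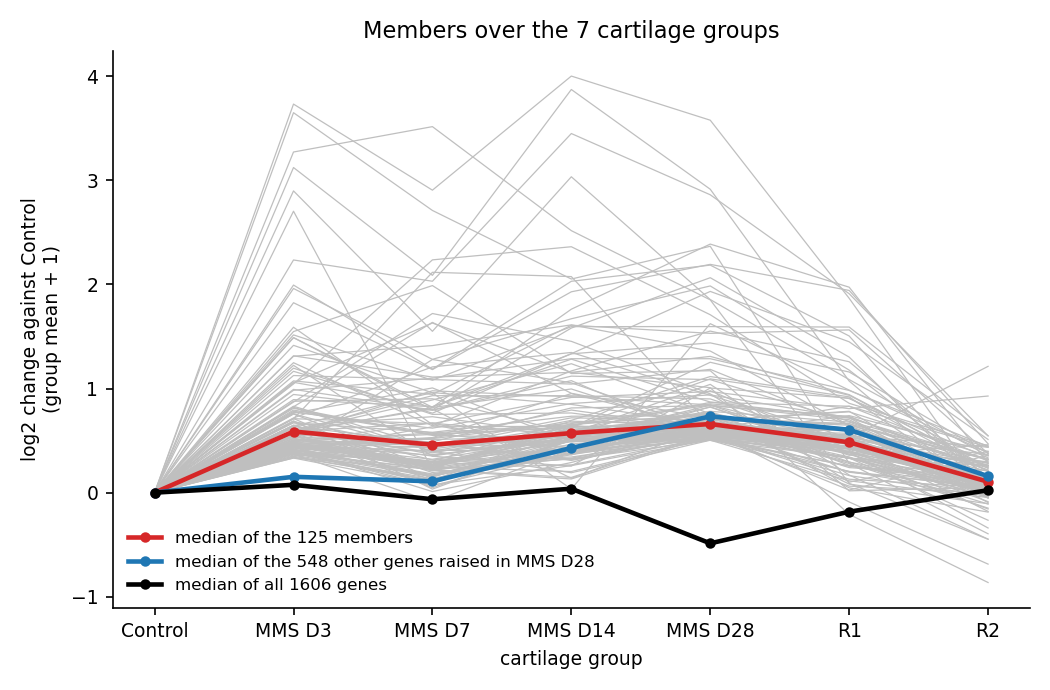
Log2 change of the group mean plus 1 against Control (vertical axis) in the 7 cartilage groups (horizontal axis). Each grey line is 1 of the 125 members, and the thick lines are medians of the members, of the 548 other genes raised in D28 and of all 1606 genes. The members' median lies at 0.59 in D3 and 0.10 in R2, and the 548 other genes' median at 0.15 in D3.

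Both libraries were above both Control libraries in 124 members in D3, where 41.3% of all genes were. The count was 108 members in D7 (23.3% of all genes), 122 in D14 (44.6%), 124 in D28 (43.1%) and 111 in R1 (40.7%). In R2 it was 59 members (29.6%), and 12 members had both libraries below both Control libraries (26.7%). Of the 125, 43 had a D28 change under 0.6 and 30 a change of at least 1. The D3 change was 0.60 to 4.78 times the D28 change, with a median of 0.787, and was at least as large in 27 members. Mtm1 (0.50), Lrrc29 (0.50), Pdss1 (0.50) and Sdad1 (0.51) were just inside the D28 limit, and Npl (0.499), Nsun3 (0.49), Ccnt1 (0.48) and Glt1d1 (0.48) just outside. Gcnt2, Tmem38b, LOC100038947 and Xkr5 were just inside the D3 limit, with ratios of 0.602 to 0.605. Ccr2, Cep152, Tlr7 and Ctsc were just outside, with 0.592 to 0.597.

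Which genes were members depended on how the libraries were scaled and on single libraries. With every library scaled to the same median, 73 genes were members, of which 64 were among the 125. Leaving out 1 of the 6 libraries the rule used gave 98 to 148 members, and 58 of the 125 remained under each of these. By the role groups described below, these 58 held all 6 stefin A genes, 9 of 14 myeloid, 7 of 12 acute phase and cytokine response, 4 of 6 cytoskeletal, 8 of 18 metabolic, 3 of 10 glucocorticoid-responsive and metallothionein and 2 of 8 matrix genes. LOC100044627, named here after its values were seen, was a member only through a low Control library, with 222 and 41.0 in Control and 197 to 272 in the MMS groups. Nbl1, a secreted inhibitor of bone morphogenetic proteins, had 26.1 and 84.6 in D28, and the lower value was below both Control values of 26.1 and 30.8.

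The rule did not use D7, D14, R1 or R2, so differences among those groups were tested with limma on log2(value + 1). P-values were adjusted by Benjamini-Hochberg over all 1606 genes, and an adjusted p under 0.05 was called. From D7 to D14, 12 of the 125 members rose and 4 fell, against 9.28% of all genes rising and 7.66% falling. With each library centred on its median 9 rose and 5 fell, and the split over all genes moved from 149 higher and 123 lower to 79 and 137. The median change was 0.20 for members and 0.09 for all genes. Among the 548 other genes raised in D28, 118 rose and 1 fell. The count of 16 members rests on single libraries: it was 29 without D7 replicate 1, 7 without D14 replicate 1 and 5 without D14 replicate 2. Without D7 replicate 2 limma called 0 members, with 16 higher and 3 lower at an unadjusted p under 0.05.

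From D14 to R1, 22 members fell and 2 rose, beside 9.78% and 8.28% of all genes. The median change was -0.08 for members and 0.08 for all genes, and 29 of the 548 other genes fell and 17 rose. The count of 24 was 14 without D14 replicate 1, 14 without R1 replicate 1 and 15 without R1 replicate 2. From D14 to R2, 76 members fell, or 60.8%, where 15.9% of all genes fell and 26.3% of the 548 other genes did. No member was called higher by limma, and 0 were higher at an unadjusted p under 0.05, while 19.8% of all genes rose. The median change was -0.47 for members, -0.07 for all genes and -0.29 for the 548, and 122 of 125 members had a negative change. Leaving out any single library of these groups left 54 to 58 members called.

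From R1 to R2, 62 members fell, or 49.6%, where 22.4% of all genes and 52.6% of the 548 other genes fell. No member was called higher by limma, and 0 were at an unadjusted p under 0.05, while 13.2% of all genes rose. The count was 21 without R1 replicate 1, 20 without R1 replicate 2, 21 without R2 replicate 1 and 33 without R2 replicate 2. Markers of other cell types also moved between these groups. The summed signal of the 19 B cell genes was 347 to 374 in D14, 531 to 579 in R1 and 1335 to 1387 in R2, and 18 of the 19 rose both from D14 to R2 and from R1 to R2. The sum of the 16 chondrocyte matrix genes was 5804 to 7054 in D14, 14889 to 15674 in R1 and 13879 to 18148 in R2, and 8 of the 16 rose from D14 to R2. The part of these cells in the members' falls was not tested. The plot of the tested changes shows the members' shift below all genes in both comparisons with R2.

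**Figure D2:**
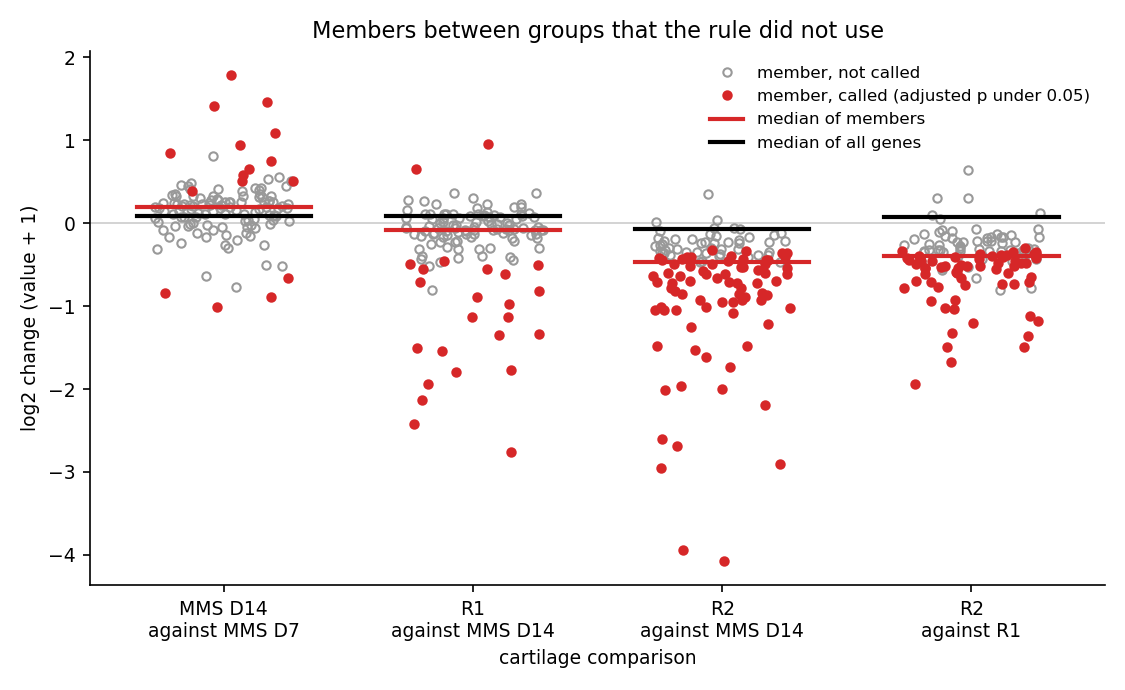
Log2 change of log2(value + 1) (vertical axis) of each of the 125 members in the 4 tested cartilage comparisons (horizontal axis). Filled points passed an adjusted p under 0.05 in limma, open points did not, and bars are medians of members (red) and of all 1606 genes (black). In R2 against D14 the members' median is -0.47 and that of all genes -0.07.

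The members with the largest D28 changes were the stefin A genes Stfa2 (3.58), BC100530 (2.91) and Stfa1 (2.86). All 6 lie in the same stretch of chromosome 16, at 36156811 to 36455392 of GRCm38: Stfa1, Stfa2, Stfa2l1, Stfa3, BC100530 and Gm5483, the last named after its values were seen. RefSeq gives a promoter window on GRCm38.p6 for Stfa1, Stfa2, Stfa2l1 and Stfa3. The 250 bases before each start are shown because these genes moved together. Capitals mark the letters TGTGGT, read here as ACCACA on the other strand, a core motif of the RUNX factors. Stfa1 is at chr16:36276898-36277147 (+), Stfa2 at chr16:36408364-36408613 (-), Stfa2l1 at chr16:36156561-36156810 (+) and Stfa3 at chr16:36455393-36455642 (-).
Stfa1: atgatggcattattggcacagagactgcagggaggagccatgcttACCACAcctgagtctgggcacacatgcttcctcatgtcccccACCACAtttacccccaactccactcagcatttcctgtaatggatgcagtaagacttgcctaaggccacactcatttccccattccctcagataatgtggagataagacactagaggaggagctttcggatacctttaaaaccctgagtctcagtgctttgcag
Stfa2: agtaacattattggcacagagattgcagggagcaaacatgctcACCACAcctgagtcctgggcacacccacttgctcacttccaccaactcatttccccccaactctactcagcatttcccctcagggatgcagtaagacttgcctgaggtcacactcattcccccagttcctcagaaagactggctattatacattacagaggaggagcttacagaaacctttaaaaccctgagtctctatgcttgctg
Stfa2l1: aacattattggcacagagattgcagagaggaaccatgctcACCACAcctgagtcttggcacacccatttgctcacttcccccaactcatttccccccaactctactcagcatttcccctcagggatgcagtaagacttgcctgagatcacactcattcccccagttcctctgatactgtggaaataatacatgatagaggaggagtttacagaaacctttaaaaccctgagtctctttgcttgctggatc
Stfa3: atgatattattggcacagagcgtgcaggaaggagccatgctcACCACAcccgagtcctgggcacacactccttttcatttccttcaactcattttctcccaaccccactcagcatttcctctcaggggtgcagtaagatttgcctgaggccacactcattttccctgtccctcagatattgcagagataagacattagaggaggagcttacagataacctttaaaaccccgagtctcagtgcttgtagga

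The 4 windows were 81.8% to 92.3% identical in pairs. The motif match shared by all 4 begins 205 to 210 bases before the start, and no match of the 7 other motifs searched overlapped it. Shares were counted over whole RefSeq windows of 300 bases, the 250 before the start and 50 after it. Over all members with a window, 21 of 101 (20.8%) held TGTGGT on either strand, as did 18.9% of 27025 RefSeq promoters. The copies are alike in their transcripts too, with 75.4% to 98.1% identity over 15 pairs, highest between BC100530 and Stfa1. How reads shared between copies were counted is not given in the sources used here, so the value of each single copy is uncertain.

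Stfa2 had 1.93 and 3.46 in Control, 50.7 and 45.5 in D3, 27.1 and 26.2 in D7, 62.7 and 53.7 in D14 and 49.1 and 37.1 in D28. It had 11.98 and 12.97 in R1 and 1.59 and 3.73 in R2. Every MMS and R1 library was thus above both Control libraries, with a dip in D7, and R2 overlapped Control. BC100530 had 2.24 and 2.84 in Control, 30.4 and 29.3 in D3, 17.6 and 10.5 in D7, 62.7 and 39.0 in D14 and 32.7 and 18.7 in D28. It had 6.35 and 6.53 in R1 and 1.51 and 3.32 in R2, again with the MMS libraries apart from Control and R2 overlapping it. Stfa1 had 2.07 and 4.30 in Control, 16.2 and 21.2 in D3, 16.2 and 16.0 in D7, 47.4 and 42.1 in D14, 34.1 and 24.7 in D28, 13.4 and 16.1 in R1 and 4.66 and 5.55 in R2. Its R2 libraries stayed just above both Control libraries. Stfa2l1 had 38.4 and 44.3 in Control, 175 and 153 in D3, 112 and 91.5 in D7, 141 and 126 in D14, 173 and 160.0 in D28, 100 and 89.5 in R1 and 43.7 and 47.8 in R2. For this copy D3 and D28 were the highest groups, and R2 overlapped Control.

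All 6 stefin A genes fell from D14 to R2, beside 15.9% of all genes and 26.3% of the 548 other genes raised in D28. Stfa2 changed by -4.07 (SE 0.26, adjusted p = 1.81e-06), BC100530 by -3.94 (SE 0.32, adjusted p = 3.58e-06) and Stfa3 by -2.68 (SE 0.22, adjusted p = 3.7e-06) in limma. Of the 6, 5 fell from D14 to R1, beside 9.78% of all genes. Stfa2 changed by -2.13 and BC100530 by -2.76, and Gm5483 did not pass (-0.51, adjusted p = 0.0693 in limma). The call of Stfa2l1 (-0.49, adjusted p = 0.0399) was lost on leaving out any 1 of the 4 libraries. From R1 to R2 all 6 fell, by 0.74 for Stfa3 to 1.94 for Stfa2, beside 22.4% of all genes and 52.6% of the 548 falling. From D7 to D14, 5 of the 6 rose, beside 9.28% of all genes. They were led by BC100530 (1.79, adjusted p = 0.00706 in limma), Stfa3 (1.47, adjusted p = 0.00404) and Stfa1 (1.42, adjusted p = 0.00517). These 3 calls were each lost without D7 replicate 2.

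The 22 other neutrophil genes of the table, which include S100a8, S100a9, Ngp and Mpo, had a summed signal in D3 below both Control libraries. It was 35072 to 35579 in the Control libraries and 30764 to 34586 in D3, while the stefin A genes were 1.96 to 3.73 log2 units above Control there. The sum was 26490 to 35254 in D7, 42531 to 52691 in D14, 55720 to 74044 in D28, 63626 to 65606 in R1 and 36011 to 45458 in R2. Among these 22 genes the median change against Control was -0.07 in D3 and 0.93 in D28, and the R1 libraries lay within the D28 range. In the tested comparisons 9 of the 22 rose from D7 to D14 (9.28% of all genes). From D14 to R1, 1 fell (9.78% of all genes), and 4 fell from D14 to R2 (15.9%, and 26.3% of the 548 other genes raised in D28). From R1 to R2, 15 fell (22.4%, and 52.6% of the 548). The stefin A genes are members through their D3 values and the 22 are the neutrophil genes the rule left out, so the D3 contrast between the sets comes from the rule and shows nothing more. The difference in time course between them in the other groups was not tested. The part of cell numbers in the stefin A values of D14 to R2 was not tested.

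**Figure D3:**
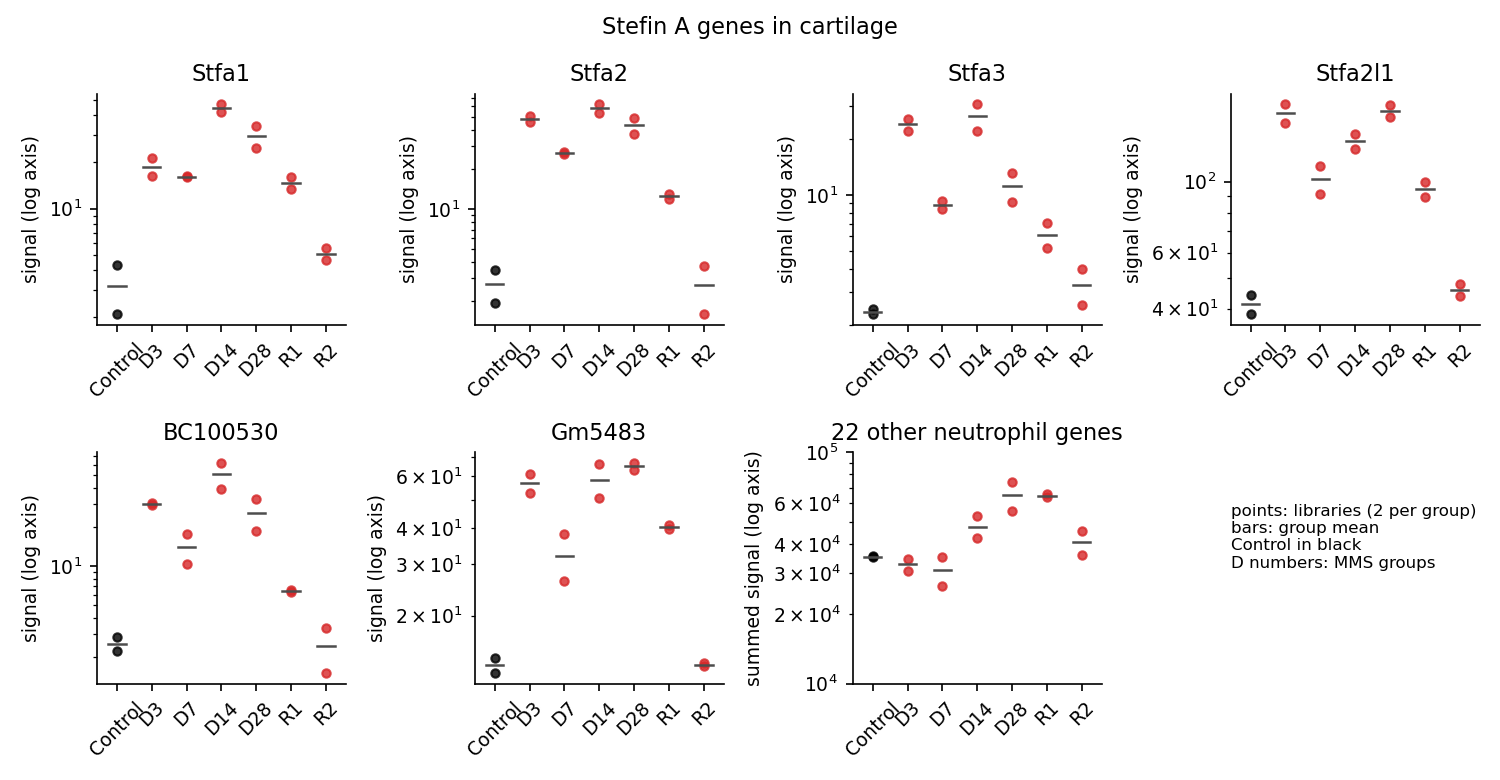
Signal of the 6 stefin A genes and summed signal of 22 other neutrophil genes (vertical axes, log scale) in the 7 cartilage groups (horizontal axes). Points are libraries, 2 per group, bars are group means and Control is black. The summed signal of the other genes, which the rule left out, is 30764 to 34586 in D3 and 63626 to 65606 in R1, and Stfa2 is 11.98 and 12.97 in R1.

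A further 14 members are genes of myeloid cells. Ifitm1, an interferon-induced membrane protein, had 34.0 and 37.6 in Control, 95.4 and 109 in D3, 69.2 and 58.8 in D7, 119.8 and 128 in D14, 195 and 188 in D28, 162 and 125 in R1 and 41.0 and 46.8 in R2. Its D28 libraries were the highest, and every library of the other groups was above both Control libraries. Wfdc17, a small secreted protein with a whey acidic protein domain, had 17.5 and 23.4 in Control, 73.6 and 76.2 in D3, 47.6 and 47.7 in D7, 79.1 and 82.2 in D14, 106 and 88.2 in D28, 83.7 and 79.0 in R1 and 33.0 and 24.3 in R2. It too kept all other libraries above Control, with R2 nearest. Asprv1, an aspartic protease, had 10.6 and 14.1 in Control, 31.3 and 41.5 in D3 and 69.3 and 40.3 in D28, and its R2 values of 9.61 and 15.1 overlapped Control.

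Of the 14, 11 fell from D14 to R2, beside 15.9% of all genes and 26.3% of the 548 other genes. Ifitm1 changed by -1.48 (adjusted p = 1.89e-05 in limma), Wfdc17 by -1.48 (adjusted p = 3.91e-05) and Ms4a6d, a four-span membrane protein of macrophages, by -1.25 (adjusted p = 0.000212). From R1 to R2, 7 fell, beside 22.4% of all genes and 52.6% of the 548 other genes. Ifitm1 changed by -1.68, Wfdc17 by -1.49 and Ms4a6d by -1.20. Between D14 and R1, by contrast, Ifitm1 (0.20, adjusted p = 0.389) and Wfdc17 (0.01, adjusted p = 0.971) did not pass in limma. In that comparison 3 of the 14 fell, beside 9.78% of all genes. The 3 were the chemokine Ccl8 (-1.35, adjusted p = 0.000741), the lipid-sensing macrophage receptor Trem2 (-0.70, adjusted p = 0.0148) and Bcl2a1b, an anti-apoptotic factor of the Bcl-2 family (-0.97, adjusted p = 0.00634). Only the call of Ccl8 among the 3 held without each library in turn.

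Ccl8 had 1.64 and 1.51 in Control, 3.95 and 3.46 in D3, 6.28 and 8.69 in D7, 6.64 and 5.46 in D14, 3.27 and 4.67 in D28, 1.99 and 1.53 in R1 and 2.27 and 2.51 in R2. It was highest in D7 and D14 and overlapped Control in R1. Trem2 had 9.46 and 10.2 in Control, 16.1 and 14.4 in D3, 27.5 and 21.6 in D14, 16.6 and 18.0 in D28, 13.9 and 15.3 in R1 and 15.4 and 10.5 in R2. Beside Trem2, 6 of 27 macrophage and monocyte markers were in the table, and their summed signal was 1384 to 1432 in Control, 1111 to 1431 in D3, 1934 to 3386 in D28 and 2415 to 2456 in R1. The sum hides a spread between the markers. In D3 their median change was -0.08, with 1 marker above both Control libraries (41.3% of all genes) and 1 below both. The marker above was Ccr2, with 15.4 to 19.3 in Control and 29.5 to 31.0 in D3. These 6 are the markers that the rule left out, so their D3 sum beside the members' D3 rise comes partly from the rule. The part of such cells in the myeloid members' values was not tested.

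Of the 12 acute phase and cytokine response members, 11 had both D7 libraries above both Control libraries (23.3% of all genes). In D14 12 did (44.6% of all genes), and in R1 6 did (40.7%). These counts share the Control libraries with the rule and are a description. Serpina3n, an acute phase inhibitor of serine proteases, had 35.2 and 21.3 in Control, 463 and 269 in D3, 151 and 230 in D7, 136 and 104 in D14, 166 and 133 in D28, 30.9 and 38.2 in R1 and 27.1 and 23.6 in R2. D3 was its highest group, and R1 and R2 overlapped Control. Chil1, a chitinase-like protein without enzymatic activity that chondrocytes and macrophages secrete, had 218 and 159 in Control, 2234 and 1423 in D3, 2024 and 2306 in D7, 1228 and 937 in D14, 646 and 720 in D28, 174 and 227 in R1 and 137 and 138 in R2. Its libraries stepped down after D7, R1 overlapped Control, and both R2 libraries were below Control.

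From D14 to R1, 6 of the 12 fell, beside 9.78% of all genes. Chil1 fell by 2.43 from D14 to R1 (SE 0.24, adjusted p = 0.000179) and Serpina3n by 1.76 (SE 0.29, adjusted p = 0.00225), and both calls held without each library in turn. Muc1, a membrane mucin (-1.13, adjusted p = 0.00816), Runx1, a transcription factor of the RUNX family (-0.61, adjusted p = 0.00556), Socs3, a feedback inhibitor of cytokine signalling (-0.55, adjusted p = 0.0159) and Serpina3b (-0.50, adjusted p = 0.0465) also fell, but each lost its call without at least 1 library. Of the 12, 10 fell from D14 to R2, beside 15.9% of all genes and 26.3% of the 548 other genes. Junb and Serpina3g did not. From R1 to R2, 3 of the 12 fell, near the share of all genes (22.4%), while 52.6% of the 548 other genes fell. The 3 were the complement C1r-like protease C1rl (-0.92, adjusted p = 0.00127 in limma), the interleukin-13 receptor chain Il13ra1 (-0.54, adjusted p = 0.0182) and Sbno2, a transcriptional co-regulator induced by STAT3 (-0.34, adjusted p = 0.042). Already from D7 to D14, Chil1 (-1.01, adjusted p = 0.0186) and Muc1 (-0.84, adjusted p = 0.0414) fell, calls lost without single libraries.

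Socs3 had 11.76 and 11 in Control, 18.8 and 16.0 in D3, 25.4 and 21.4 in D7, 23.9 and 20.9 in D14, 20.6 and 21.9 in D28, 15.8 and 14.2 in R1 and 11.5 and 11.2 in R2. Stat3, the transcription factor that Socs3 restrains, moved over a narrower range, with 32.3 and 31.6 in Control, 47.2 and 47.3 in D3 and 51.9 and 48.7 in D28. Stat3 kept 43.7 and 42.9 in R1 and 35.1 and 34.9 in R2, and it fell by 0.41 from D14 to R2 (adjusted p = 0.0134), a call lost without some libraries.

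Several of the 10 glucocorticoid-responsive and metallothionein members had lower values in D7 or D14 than in D3 and D28. The rule chose members by their rise in D3 and D28, so this shape is partly fixed by it and is a description. Per1, a clock repressor that glucocorticoids induce, had 9.09 and 8.34 in Control, 24.2 and 25.6 in D3, 13.8 and 21.9 in D7, 9.41 and 8.49 in D14, 30.9 and 26.9 in D28, 17.5 and 18.9 in R1 and 11.3 and 12.1 in R2. Its D14 libraries were within or just above the Control range. Tsc22d3, known as the glucocorticoid-induced leucine zipper, had 37.2 and 37.7 in Control, 80.0 and 97.4 in D3, 41.1 and 54.9 in D7, 46.3 and 43.4 in D14, 86.8 and 65.4 in D28, 69.7 and 72.6 in R1 and 45.4 and 41.1 in R2. It too was lower in D14 than in D3 and D28, though all its libraries were above both Control libraries. Fkbp5, a co-chaperone of the glucocorticoid receptor, had 9.43 and 10.5 in Control, 17.4 and 17.6 in D3 and 29.8 and 14.9 in D28, where its libraries differed most.

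Per1 and Tsc22d3 were the 2 members that rose from D14 to R1. Per1 rose by 0.95 (SE 0.18, adjusted p = 0.00348), which held without each library, and Tsc22d3 by 0.65 (adjusted p = 0.0202), which was lost without any 1 of the 4. Per1 also fell from D7 to D14 by 0.89 (adjusted p = 0.0117) and from R1 to R2 by 0.60 (adjusted p = 0.0251), and both calls were lost without single libraries. The hour of tissue collection, which sets the level of clock genes, is not given in the labels, and its part in Per1 was not tested. Mt1 and Mt2, metal-binding metallothioneins that metals, glucocorticoids and cytokines induce, moved the other way. Mt1 had 119 and 119.7 in Control, 183 and 139.6 in D3, 271 and 311 in D7, 211 and 286 in D14, 203 and 159.9 in D28, 124 and 100.2 in R1 and 79.7 and 67.8 in R2. It was highest in D7 and below both Control libraries in R2. Mt1 fell by 1.14 from D14 to R1 (adjusted p = 0.00252), and Mt2 by 1.34 (adjusted p = 0.0137). From D14 to R2 the changes were -1.73 (adjusted p = 3.74e-05) and -2.00 (adjusted p = 0.00051).

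Map3k6, a stress kinase, had 3.36 and 2.88 in Control, 12.2 and 10.6 in D3, 4.93 and 6.03 in D7, 4.77 and 4.02 in D14, 6.64 and 4.37 in D28, 3.62 and 5.14 in R1 and 3.78 and 3.34 in R2. D3 stood well above every other group. Its promoter, like those of Mt1 and Serpina3n, held the palindrome of the glucocorticoid receptor (GNACA, any 3 bases, TGTNC), searched for after the values were seen. The palindrome reads the same on both strands. The match is shown in capitals with 24 bases on each side, from RefSeq on GRCm38.p6, all on the + strand, because these are the members whose windows hold it. Map3k6 is at chr4:133240613-133240673, Mt1 at chr8:94178971-94179031 and Serpina3n at chr12:104406606-104406666.
Map3k6: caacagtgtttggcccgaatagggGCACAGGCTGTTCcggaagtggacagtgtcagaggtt
Mt1: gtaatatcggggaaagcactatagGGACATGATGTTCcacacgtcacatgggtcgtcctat
Serpina3n: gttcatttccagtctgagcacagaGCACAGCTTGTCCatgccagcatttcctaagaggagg

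The matches begin 181, 94 and 78 bases before the start of Map3k6, Mt1 and Serpina3n. They are 3 of 101 members with a window (2.97%), beside 0.537% of all 27025 promoters and 8 of the 1226 table genes with a window (0.653%). With 3 matches this share is a description. The windows of Per1, Tsc22d3 and Fkbp5 did not hold these letters, which says nothing of sites elsewhere.

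**Figure D4:**
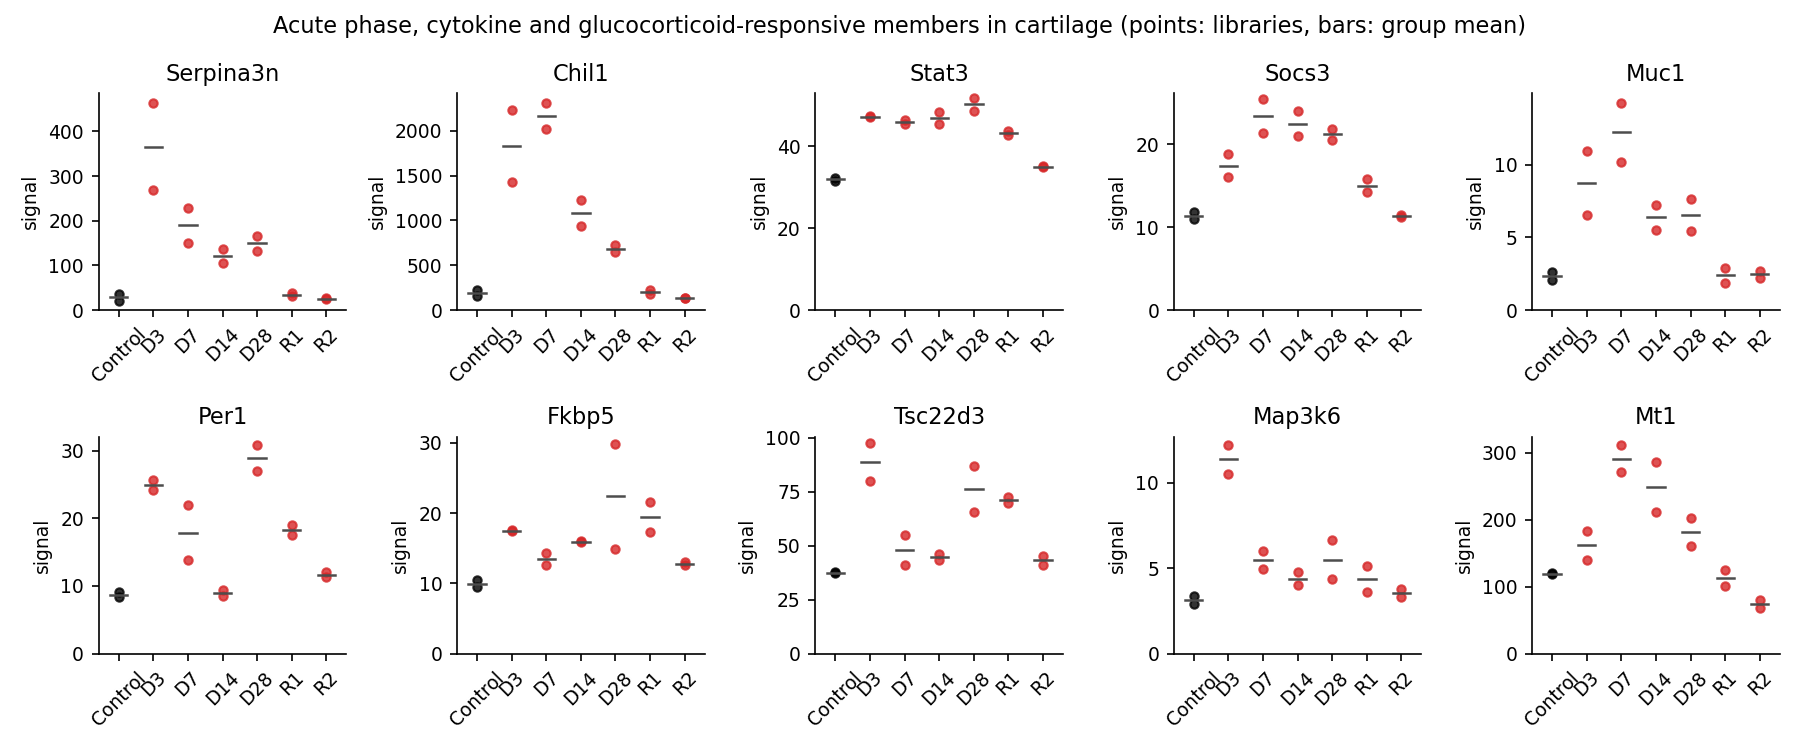
Signal (vertical axes, from 0) of 5 acute phase and cytokine response members (top row) and 5 glucocorticoid-responsive or metallothionein members (bottom row) in the 7 cartilage groups (horizontal axes). Points are libraries, 2 per group, and bars are group means. Per1 has 24.2 and 25.6 in D3, 9.41 and 8.49 in D14 and 30.9 and 26.9 in D28.

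Matrix and secreted signalling gave 8 members with unlike courses. Mmp13, the main collagenase of cartilage breakdown, had 115 and 101 in Control, 201 and 153 in D3, 527 and 415 in D7, 478 and 438 in D14, 145 and 194 in D28, 124 and 139 in R1 and 116 and 47.3 in R2. It peaked in D7 and D14 and overlapped Control in R2. Wisp2, a matricellular protein of the CCN family that the annotation calls Ccn5, had 6.19 and 6.89 in Control, 17.2 and 11.9 in D3, 37.9 and 31.2 in D7, 38.8 and 36.7 in D14, 19.1 and 28.2 in D28, 12.8 and 12.5 in R1 and 11.9 and 6.69 in R2. D7 and D14 were its highest groups as well. Timp4, an inhibitor of metalloproteinases, had 2.55 and 1.73 in Control, 20.6 and 18.3 in D3, 1.81 and 3.51 in D7, 2.64 and 2.31 in D14, 4.52 and 2.77 in D28, 2.73 and 4.36 in R1 and 2.02 and 2.11 in R2. Timp4 stood far above Control in D3, and its D28 and R1 libraries were just above Control.

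Mmp13 fell by 1.80 from D14 to R1 (SE 0.32, adjusted p = 0.00262) and Wisp2 changed by -1.503 (SE 0.25, adjusted p = 0.0021). Of the 8, 6 fell from D14 to R2, beside 15.9% of all genes and 26.3% of the 548 other genes. Mmp13 fell by 2.61 and Wisp2 by 1.96, and Timp4 (-0.18, adjusted p = 0.585) and Nbl1 (-0.16, adjusted p = 0.802) did not pass in limma. Tgfbi, an adhesion protein of the matrix induced by TGF-beta, had 49.6 and 60.3 in Control, 102 and 104 in D3, 166 and 135 in D28, 119 and 129 in R1 and 71.8 and 71.3 in R2. It did not pass from D14 to R1 (-0.17, adjusted p = 0.435) and fell by 0.78 from R1 to R2 (adjusted p = 0.00325). The 16 chondrocyte matrix genes, none of them a member, had sums of 30550 to 31212 in D3, above Control, and of 8406 to 9493 in D28, below it, beside the sums in D14, R1 and R2 given above. The genes did not all follow the sum in D3. There 9 of the 16 had both libraries above both Control libraries (41.3% of all genes) and 3 had both below, with a median change of 0.36. Col2a1, with 735 to 756 in D3, lay within its Control range of 638 to 906.

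The 6 cytoskeletal and calcium-binding members had D3 changes of 0.46 to 1.06. Vim, the intermediate filament of mesenchymal cells, had 430 and 434 in Control, 596 and 590 in D3, 629 and 617 in D7, 946 and 726 in D14, 669 and 660 in D28, 588 and 614 in R1 and 509 and 453 in R2. S100a4 and S100a6, small calcium-binding proteins, had 98.5 to 119 and 283 to 317 in Control and 215 to 241 and 501 to 514 in D3. In each of the 3 genes D3 was above Control without overlap, as in 124 of the 125 members and 41.3% of all genes. The rule used both groups, so this is a description. Beside 15.9% of all genes and 26.3% of the 548 other genes, 4 of the 6 fell from D14 to R2. Among them were Vim (-0.79, adjusted p = 0.00182 in limma), S100a4 (-0.95, adjusted p = 0.000895) and S100a6 (-0.60, adjusted p = 0.0154).

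Beside 22.4% of all genes and 52.6% of the 548 other genes, 14 of the 18 metabolic enzymes and carriers fell from R1 to R2. They include the glycolytic enzymes Hk2 (-0.54, adjusted p = 0.00673), Pgam1 (-0.43, adjusted p = 0.0303) and Pkm (-0.42, adjusted p = 0.046), the last 2 lost on leaving out any 1 library. Hk2, which phosphorylates glucose, had 5.16 and 5.35 in Control, 6.81 and 7.56 in D3, 5.79 and 5.32 in D7, 7.16 and 7.17 in D14, 9 and 8.26 in D28, 8.87 and 8.31 in R1 and 5.46 and 5.72 in R2. Its D28 and R1 libraries were the highest, D7 overlapped Control and R2 lay just above it. Pkm, pyruvate kinase, had 433 and 427 in Control, 597 and 567 in D3, 721 and 584 in D28 and 421 and 469 in R2. Prodh, which oxidises proline, fell by 0.72 from D14 to R2 (adjusted p = 0.00165), and Paox, which oxidises acetylated polyamines, by 0.61 (adjusted p = 0.00219). Soat1, which esterifies cholesterol, rose by 0.51 from D7 to D14 (adjusted p = 0.0383), a call lost without single libraries.

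The other 51 members have mixed roles. From D14 to R2 25 of them fell, beside 15.9% of all genes and 26.3% of the 548 other genes raised in D28. From R1 to R2 22 fell, beside 22.4% of all genes and 52.6% of the 548. Rbm3, a cold-inducible RNA-binding protein, had 155 and 164 in Control, 415 and 380 in D3, 354 and 336 in D7, 363 and 348 in D14, 394 and 398 in D28, 308 and 306 in R1 and 188 and 186 in R2. All its MMS libraries lay above R1, and R1 above R2, which was itself above Control. Rbm3 fell by 0.92 from D14 to R2 (SE 0.13, adjusted p = 0.000159) and by 0.71 from R1 to R2 (adjusted p = 0.00229), and both calls held without each library in turn. Azin2, an inhibitor of antizyme in polyamine synthesis, had 1.42 and 1.34 in Control, 4 and 3.15 in D3, 4.23 and 3.80 in D14 and 1.89 and 2.89 in D28. It fell by 0.82 from D14 to R1 (adjusted p = 0.00348).

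In synovium, which the rule did not use, 14 of the 125 members were measured, in FPKM, or fragments scaled to gene length and library size. Those described are Wisp2, Ccl8, Runx1, Socs3, Azin2, Per1, Prodh, Rasd1, Timp4, Hk2, Paox and Khk. Against Control, 7 rose and 0 fell in D3 by limma (0 lower at an unadjusted p under 0.05), beside 16.3% of all 1178 genes rising and 39.6% falling. In D7, 6 rose and 5 fell (24.1% and 61.6% of all genes), and in D14, 6 rose and 7 fell (27.7% and 69.3%). In R1, 4 rose and 6 fell (15.9% and 45.2%), and in R2, 3 rose and 5 fell (15.7% and 45.1%). The count in R1 was 6 without Control replicate 2 and 6 without R1 replicate 2. With each library centred on its median, 6 rose and 2 fell in D7 and 4 rose and 4 fell in R2. The median change of all genes was -0.34, -0.65, -1.08, -0.38 and -0.38 from D3 to R2 and moved to -0.22, -0.37, -0.56, -0.19 and -0.16 with centring. In D14, 96.9% of all genes passed in either direction, so the members' count of 13 there is near the background.

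Wisp2, Ccl8 and Runx1 rose in synovium in all 5 groups. Wisp2 had 17.2, 21.6 and 13.3 FPKM in Control, 224, 202 and 162 in D3, 259, 219.8 and 238 in D7, 234, 227 and 254 in D14, 59.9, 67.3 and 58.5 in R1 and 70.4, 46.4 and 61.1 in R2. No library overlapped Control, and R1 and R2 lay between Control and the MMS groups. Its change against Control was 3.44 (SE 0.18, adjusted p = 1.18e-09) in D3 and 1.72 (adjusted p = 1.17e-05) in R2. Ccl8 had 6.69, 8.88 and 4.59 FPKM in Control, 62.8, 125 and 64.2 in D3, 123, 112 and 136 in D7 and 20.0, 17.0 and 7.33 in R2, where it overlapped Control. Its change was 3.42 (adjusted p = 1.12e-06) in D3 and 0.96 (adjusted p = 0.0204) in R2, where the call was lost without single libraries, with an adjusted p of up to 0.113. Runx1 had 3.11, 3.84 and 3.31 FPKM in Control and 28.04, 14.3 and 16.5 in D3, a change of 2.16 (adjusted p = 1.1e-06). All its later libraries were above Control.

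Socs3 and Azin2 rose in D3, D7 and D14. Azin2 was also called in R1 (0.63, adjusted p = 0.0262 in limma), a call lost without single libraries, and Socs3 was not. Socs3 changed by 1.34 (adjusted p = 0.00173), 1.82 (adjusted p = 5.91e-05) and 1.89 (adjusted p = 1.54e-05), and it had 72.8, 41.9 and 26.9 FPKM in D3 over 15.8, 21.8 and 13.1 in Control. Per1 was called in D3 (1.26, adjusted p = 0.0232) with 32.5, 34.1 and 42.2 over 8.06, 11.3 and 32.3, and leaving out Control replicate 1 raised the adjusted p to 0.122. In D14, Prodh, Rasd1, Timp4, Hk2, Paox and Khk fell. Prodh had 22.1, 20.4 and 26.3 in Control and 3.19, 4.19 and 5.79 in D14, a change of -2.17 (adjusted p = 2.14e-07). Timp4 changed by -1.86 (adjusted p = 9.42e-06) and Hk2 by -1.03 (adjusted p = 1.83e-05) in D14. Neither overlapped Control there, and both also fell in D7, R1 and R2. Rasd1, a Ras-related protein that glucocorticoids induce, had 102, 109 and 93.3 in Control, 108, 186 and 163 in D3 (0.55, adjusted p = 0.0928) and 18.8, 35.3 and 29.2 in D14 (-1.88, adjusted p = 4.4e-06).

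**Figure D5:**
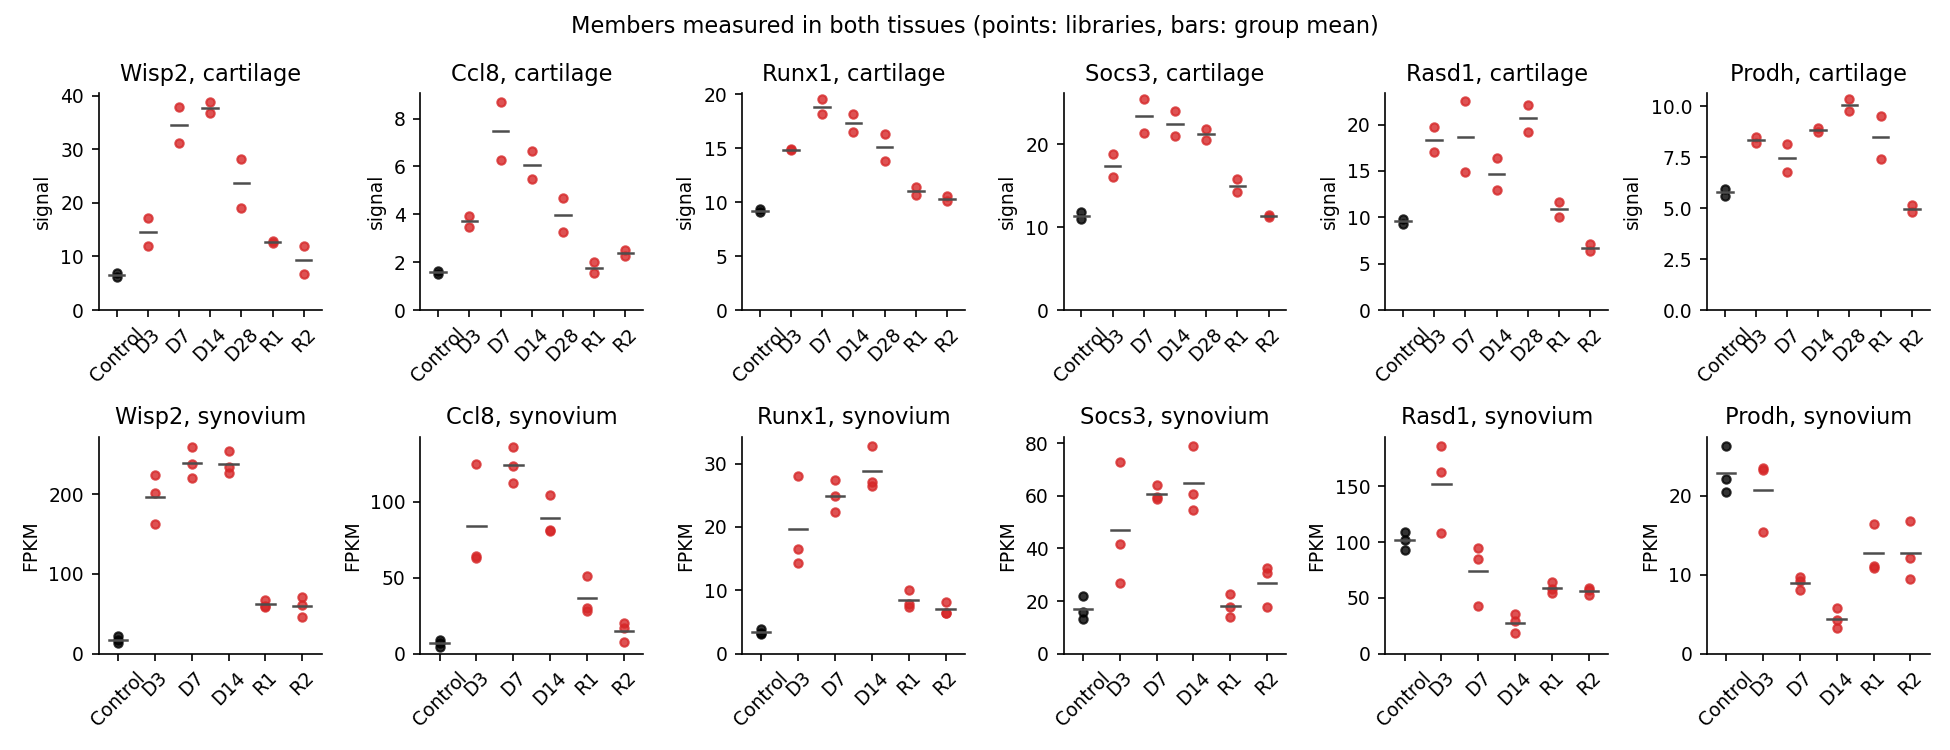
Signal in cartilage (top row, 2 libraries per group) and FPKM in synovium (bottom row, 3 libraries per group) of 6 members measured in both tissues (vertical axes, from 0) by group (horizontal axes). Points are libraries and bars are group means. Wisp2, Ccl8, Runx1 and Socs3 are above Control in D7 and D14 of both tissues, and Rasd1 and Prodh are above Control in cartilage and below it in synovium in D14.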

How the data were processed

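Per the labels' protocols, RNA was extracted with Trizol and libraries followed BGI protocols, and per the submitters' processing notes alignment used HISAT2 and mm10. The quantifier is not given in the sources used here. The authors deposited FPKM values for synovium, per the file headers. The deposited cartilage values are a normalised signal of unstated unit. Neither gives depth. Samples were grouped by their labels. Each tissue was fitted with all groups in limma 3.58.1 (R 4.3.3) with trend, on log2(value + 1). A filter (value of at least 1) removed 0 genes. The fit was tested on simulated data. Alternatives were centring, a pseudocount of 0.1, no filter, a replicate block and leaving out each library. Members, gene lists and role groups were chosen with earlier results of these data known, and role groups after the values were seen. Named genes have the largest D28 changes, highest signals, smallest adjusted p per comparison or a place in a list. Some single-gene results are not reported here. Positions came from GENCODE vM21, promoters from RefSeq, and identities from Biopython 1.88 alignments.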

Additional observations from a re-analysis of the deposited data

Results flagged for a closer look

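For Rasd1, Prodh, Khk, Paox and Hk2, every library of a group lay on opposite sides in cartilage and synovium, and the difference was not tested. Against Control, the log2 change in D14 was 0.56 in cartilage and -1.88 in synovium for Rasd1. It was 0.54 and -2.17 for Prodh, 0.29 and -0.97 for Khk (ketohexokinase), and 0.69 and -1.04 for Paox. It was 0.38 and -1.03 for Hk2. The rule used the cartilage Control libraries, and both D14 libraries were above both of them in 122 of the 125 members (44.6% of all genes). In synovium 69.3% of all genes fell in D14. The opposite signs against Control are therefore a description.

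Against D14 the signs were the other way round. In R2 the change was -1.01 in cartilage and 1.03 in synovium for Rasd1, -0.72 and 1.35 for Prodh, and -0.34 and 0.69 for Khk. It was -0.61 and 0.50 for Paox. In R1 it was -0.40 and 1.10 for Rasd1 and -0.10 and 0.61 for Paox. The cartilage changes of Rasd1 and Paox in R1 did not pass the test in cartilage. Both comparisons share the D14 libraries. Relative to Control, the median synovium gene changed by -1.08 in D14, by -0.38 in R1 and by -0.38 in R2. It thus also lay higher in R1 and R2 than in D14. The D14 falls of Khk, Paox and Hk2 in synovium were no larger than that of this median gene. Whether the synovium rises from D14 exceeded the general one was not tested, so they are not read as specific to these genes.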

How the results depend on the processing

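With each cartilage library scaled to the same median, 73 genes were members, and the members' median change was 0.56 in D7, 0.65 in D14, 0.61 in R1 and 0.15 in R2. With a pseudocount of 0.1 it was 0.65 in D14, 0.54 in R1 and 0.12 in R2. Leaving out 1 library at a time gave 98 to 148 members and medians of 0.417 to 0.523 in D7, 0.556 to 0.618 in D14, 0.463 to 0.514 in R1 and 0.0954 to 0.118 in R2. It gave 0 to 29 called members in D14 against D7, 14 to 19 in R1 against D14, 54 to 58 in R2 against D14 and 20 to 33 in R2 against R1. In synovium it gave 6 to 8 in D3, 10 to 12 in D7, 13 to 13 in D14, 6 to 10 in R1 and 6 to 10 in R2. A rule added after seeing the data, both libraries above Control in D3 and D28, kept 123 members. Of 1914 repeats of 227 called gene results, 1541 kept direction and call, 373 lost the call and 0 reversed. The cause was not tested. The samples were not taken as paired by replicate number, since not every same-numbered pair correlated above 0.1: 12 of 42 cartilage pairs did (-0.51 to 0.42, median -0.09) and 26 of 45 synovium pairs (-0.17 to 0.66, median 0.13). Asking this of every pair is strict, so the check cannot settle whether same-numbered libraries, above all in synovium, belonged together. With the replicate number as a block, the called members were 12, 21, 69 and 52 in the cartilage comparisons, in the order above, and 7, 11, 13, 10 and 8 in synovium. Depth is unknown.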
